A study of Paeonia lactiflora with 9 samples.

Results

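The 10 unigenes described here encode enzymes at the end of fatty acid synthesis in the plastid and just after it: 4 KASII, 1 FATA, 2 FATB and 3 LACS. They were taken, by enzyme name, from the 123 unigenes in the study's list of genes for fatty acids and oil, and matched by identifier to the deposited table of 125685 unigenes. That list held unigenes called as differentially expressed genes (DEGs), with at least a 2-fold difference in FPKM between any pair of stages, and unigenes with the same sequence as another had been removed from it. The difference between stages in these libraries therefore chose the members, and their changes over time are given as a description with no test.

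Seeds of the herbaceous peony Paeonia lactiflora 'Hangshao' had been collected at 30, 60 and 90 days after flowering (DAF) and made into 9 libraries, 3 at each stage. The labels give one strain of this cultivar, grown in one garden, and the study's methods speak of seeds from the same plant, so seed age is the stated difference between the groups. The 3 libraries of a stage are called biological replicates, and if they share a plant the spread between them leaves out variation between plants. Whole seeds were sequenced, and less RNA per cell and fewer cells of a type cannot be told apart in such libraries. The stages were set against each other as Group I (60 against 30 DAF), Group II (90 against 60 DAF) and Group III (90 against 30 DAF).

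Fatty acids are built in the plastid on acyl carrier protein (ACP). KASII, 3-oxoacyl-ACP synthase II, lengthens palmitoyl-ACP to the chain that becomes stearoyl-ACP, and stearoyl-ACP desaturase (SAD) turns stearoyl-ACP into oleoyl-ACP. The thioesterases end synthesis by releasing the free fatty acid from ACP: FATA acts mainly on oleoyl-ACP and FATB mainly on saturated acyl-ACP such as palmitoyl-ACP. LACS, long-chain acyl-CoA synthetase, joins the released fatty acid to coenzyme A, the form in which it is used for elongation and for triacylglycerol, the seed's storage oil. The relation of FATA to FATB is thus a relation between the exits for unsaturated and saturated chains. The enzyme names are those of the study's annotation, and it was not tested whether a unigene named KASII encodes the related enzyme KASI, which acts on shorter chains.

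For 3 of the most abundant members the study designed a primer pair for quantitative PCR. The primers are shown because they mark the stretches of these transcripts that the sources used here spell out, and they fix which KASII, FATA and FATB unigene is meant below. The forward and reverse primers of a pair match opposite strands. Each is written 5′ to 3′, and capitals mark its last 5 bases, the 3′ end from which the polymerase extends.
Unigene29386_All KASII forward: tggctgaggtgaaTGCTA
Unigene29386_All KASII reverse: caactgaaggctctgGATTA
CL14443.Contig1_All FATA forward: acctacattggctggGTTCT
CL14443.Contig1_All FATA reverse: aaactgcttccgcCTCTT
Unigene26774_All FATB forward: gcgcaaaggtttaACTCC
Unigene26774_All FATB reverse: tctccaagattggCAAGG
No primer was listed for CL14889.Contig1_All, the other abundant KASII, or for a LACS. By quantitative PCR the study also measured seed ages for which there is no library. It reports that most genes so measured peaked between the youngest and the middle sequenced stage, with exceptions in oil assembly and storage. A rise and fall between sequenced stages cannot be seen in the libraries, and the quantitative PCR values were not analysed here.

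Levels are given as FPKM, a fragment count divided by transcript length and by the fragments mapped in that library, which puts different unigenes on one scale. The study states that its assembly may be incomplete and that several unigenes may be pieces of a single gene. Comparisons of level between unigenes carry that limit. Changes are given on the log2(FPKM + 0.5) scale, which understates the change of low unigenes. Of the 10 members, 8 reached 0.5 FPKM in at least 3 libraries and entered the fit, in which a call needed a change of at least 1 (log2) and an adjusted p of at most 0.05 (limma, Benjamini-Hochberg). FATB Unigene1453_All and LACS Unigene13215_All did not. The values that chose the members, the log2 ratios of stage mean FPKM, ranged in size from 1.22 for FATB Unigene26774_All to 7.85 for KASII Unigene34228_All, each in Group III. Next to the limit of 1 stood FATB Unigene26774_All, LACS CL8536.Contig1_All at 1.26 and LACS Unigene19998_All at 1.27. Unigenes just outside it are not in the study's list and were not analysed here.

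The study lists nearly equal amounts of clean reads for all libraries. The depth of the libraries relative to each other was estimated from the steps between low FPKM values at 0.871 to 1.04. That estimate is approximate, since it rests on a minority of the low values (402 of 11421 in replicate 3 of 90 DAF), and it does not show that a stage was sequenced less. Across unigenes, libraries of 30 DAF correlated with each other at 0.939 to 0.949, those of 60 DAF at 0.927 to 0.936 and those of 90 DAF at 0.814 to 0.856, so values at 90 DAF carry the widest spread. All 6 oleosin unigenes, which coat oil bodies, had at least 1 FPKM in every library, and their sum was 758 to 914 FPKM at 30 DAF and 8056 to 12840 FPKM at 90 DAF. The 4 caleosin unigenes, also of oil bodies, summed to 399 to 523 FPKM at 30 DAF and 1045 to 1515 FPKM at 90 DAF. Of these 4, 2 had at least 1 FPKM in every library, and 1 was listed at 0 in some library. Both sets come from the study's list, so their differences between stages were part of that choice. For the median unigene the fitted change was -0.31 (Group I), 0.36 (Group II) and 0.06 (Group III) on the log2 scale, so changes relative to the median are 0.31 higher, 0.36 lower and 0.06 lower than those printed.

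The 10 members together went from 286 ± 17.8 FPKM (SD, n = 3) at 30 DAF to 129 ± 11.2 at 60 DAF and 73.8 ± 1.97 at 90 DAF, as sums with no test. The enzymes did not go down in step. KASII made up 44.8%, 36.0% and 16.3% of the summed FPKM in the order of the stages, while FATA and FATB went from 42.5% to 49.4% and 59.8%, and LACS from 12.7% to 14.6% and 23.9%. For KASII and for the thioesterases these shares did not overlap between any stages, and for LACS they overlapped between 30 and 60 DAF only. By 90 DAF most of the transcript of the 10 members was that of the thioesterases, and KASII, the largest share at 30 DAF, was the smallest. The LACS share leaves out the unlisted contigs of CL8536, the assembly cluster of a LACS member. At 90 DAF that whole cluster summed to 33.9 FPKM and LACS Unigene19998_All stood at 14.6, beside 44.2 for summed FATA and FATB. The order of LACS and the thioesterases at 90 DAF thus depends on which contigs are counted.

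**Figure D1:**
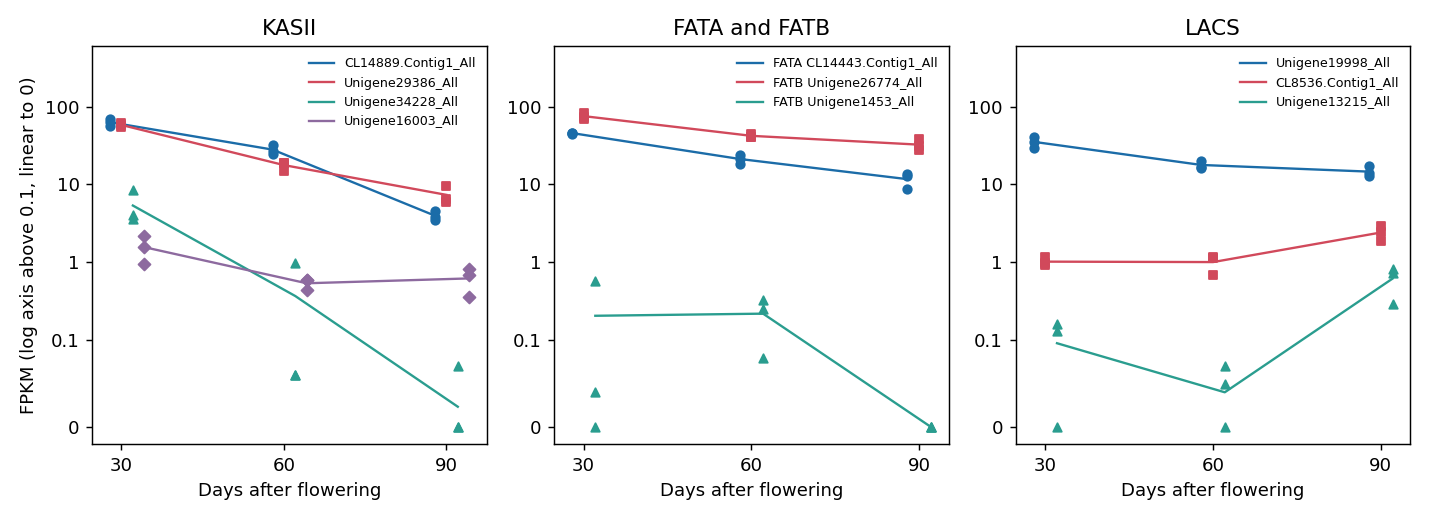
FPKM of the 10 members in each of the 9 libraries against days after flowering, in panels for KASII, for FATA and FATB, and for LACS, on an axis that is logarithmic above 0.1 FPKM and linear below; points are libraries and lines join stage means (n = 3). The 5 abundant members start between 29.19 and 83.51 FPKM at 30 DAF and are all lower at 90 DAF, and the other 5 stay below 9 FPKM in every library.

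KASII was carried by a pair of unigenes that were about equally abundant in young seeds. CL14889.Contig1_All stood at 55.83, 64.22 and 68.82 FPKM at 30 DAF, at 32.51, 24.31 and 27.30 FPKM at 60 DAF and at 3.78, 3.54 and 4.60 FPKM at 90 DAF. Each stage lay wholly below the one before it, and the stage means were 63.0 ± 6.59, 28.0 ± 4.15 and 3.97 ± 0.556 FPKM (SD, n = 3). Its fitted change was -1.16 (Group I), -2.67 (Group II) and -3.83 (Group III) on the log2 scale (SE 0.16), so the larger drop fell between 60 and 90 DAF. Relative to the median unigene the changes were -0.85, -3.03 and -3.89. It was called in all 3 groups, and the Group I call was lost under median-of-ratios scaling (-0.75) and quantile normalization (-0.79).

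Unigene29386_All, the KASII with the primer pair above, stood at 55.01, 61.69 and 57.55 FPKM at 30 DAF, at 19.04, 15.08 and 19.08 FPKM at 60 DAF and at 6.42, 5.96 and 9.70 FPKM at 90 DAF. The stages again did not overlap, and the means were 58.1 ± 3.37, 17.7 ± 2.30 and 7.36 ± 2.04 FPKM (SD, n = 3). The change was -1.69 (Group I), -1.24 (Group II) and -2.93 (Group III) on the log2 scale (SE 0.20). Relative to the median unigene the changes were -1.39, -1.59 and -2.99. Which step held the larger drop thus depended on the scaling: Group I in the deposited FPKM, but Group II relative to the median, under median-of-ratios scaling (-1.28 and -1.82) and under quantile normalization (-1.30 and -1.59). It was called in all 3 groups, also under both other scalings.

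The leading KASII was not the same at all stages. The ratio of Unigene29386_All to CL14889.Contig1_All was 0.985, 0.961 and 0.836 in the libraries of 30 DAF, 0.586, 0.620 and 0.699 in those of 60 DAF and 1.70, 1.68 and 2.11 in those of 90 DAF. CL14889.Contig1_All was thus the more abundant in all 6 libraries of 30 and 60 DAF and Unigene29386_All in all 3 libraries of 90 DAF, and the ratio did not overlap between any stages. As shares of summed KASII FPKM, CL14889.Contig1_All went from 49.1% to 60.0% and then 33.5%, and Unigene29386_All from 45.4% to 38.0% and then 61.0%. Over all 9 libraries the difference in level within the pair did not pass an exact two-sided sign-flip permutation test (mean log2 difference -0.03, SD 0.68, n = 9, p = 0.906, adjusted p = 0.906 over 4 level comparisons), with the first higher in 6 of 9. The libraries of that test come from 3 stages in which the order turns, so its mean describes none of them.

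**Figure D2:**
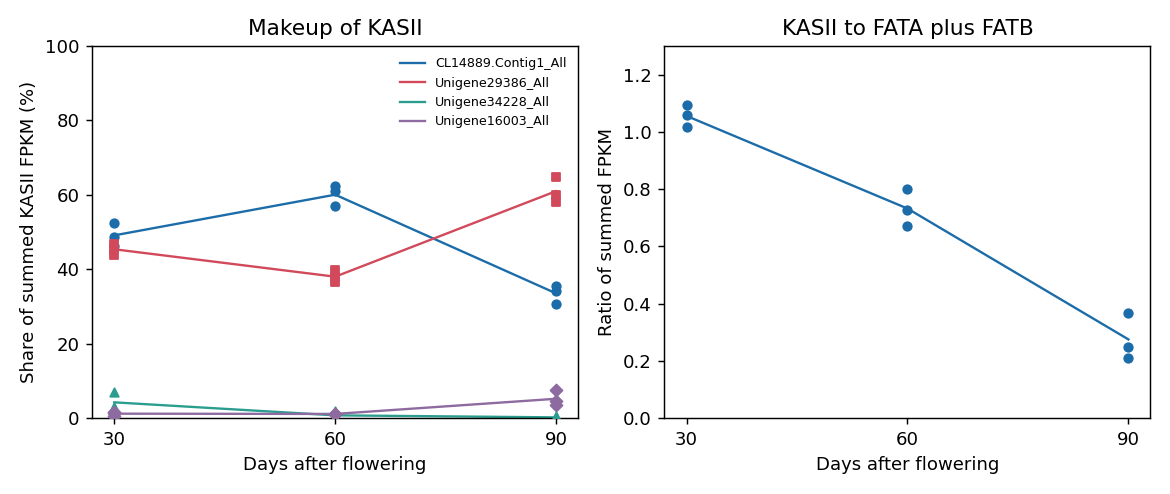
Left, share of summed KASII FPKM (%) taken by each of the 4 KASII unigenes, and right, the ratio of summed KASII FPKM to summed FATA and FATB FPKM, against days after flowering; points are libraries and lines join stage means (n = 3). The lines of CL14889.Contig1_All and Unigene29386_All cross between 60 and 90 DAF, at shares of 33.5% and 61.0% by 90 DAF, and the ratio goes from 1.06 to 0.275.

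The other 2 KASII unigenes were minor. Unigene34228_All stood at 8.45, 4.06 and 3.60 FPKM at 30 DAF, at 0.06, 0.06 and 0.99 FPKM at 60 DAF and at 0, 0.07 and 0 FPKM at 90 DAF. It was close to undetected after 30 DAF in every library but the third of 60 DAF, and was called lower in Groups I (-2.83) and III (-3.40, log2, SE 0.45), sizes that depend on the value added before the logarithm. Unigene16003_All stood at 1.56, 2.20 and 0.95 FPKM at 30 DAF, at 0.59, 0.44 and 0.59 FPKM at 60 DAF and at 0.83, 0.36 and 0.68 FPKM at 90 DAF. It was not called in any group, though without replicate 3 of 30 DAF it was called lower in Group III (-1.09), and its small Group II change of 0.09 (log2) turned to -0.23 under median-of-ratios scaling. With the pair falling around it, Unigene16003_All went from 1.23% of summed KASII FPKM at 30 DAF to 5.23% at 90 DAF.

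The single FATA, CL14443.Contig1_All, was the steadiest member among replicates at 30 DAF. It stood at 44.91, 45.88 and 46.39 FPKM at 30 DAF, at 24.00, 18.52 and 21.27 FPKM at 60 DAF and at 13.51, 8.80 and 12.81 FPKM at 90 DAF. No stages overlapped, and the means were 45.7 ± 0.752, 21.3 ± 2.74 and 11.7 ± 2.54 FPKM (SD, n = 3). The change was -1.09 (Group I), -0.85 (Group II) and -1.94 (Group III) on the log2 scale (SE 0.18). It was called in Groups I and III, while under median-of-ratios scaling and quantile normalization it was called in Groups II and III instead of I. The fall over the whole interval did not depend on the scaling, and its division between the steps did.

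FATB was represented almost wholly by Unigene26774_All, the most abundant of the 10 members over all libraries. It stood at 69.36, 83.51 and 73.45 FPKM at 30 DAF, at 40.97, 40.73 and 44.65 FPKM at 60 DAF and at 31.01, 38.44 and 27.91 FPKM at 90 DAF. The stages did not overlap, though the highest library of 90 DAF came close to 60 DAF, and the means were 75.4 ± 7.28, 42.1 ± 2.20 and 32.5 ± 5.41 FPKM (SD, n = 3). Its changes of -0.83 in Group I and -0.38 in Group II did not reach the call, and the -1.21 of Group III did (log2, SE 0.15). Under median-of-ratios scaling the changes in Groups I and II were -0.42 and -0.98, and under quantile normalization -0.44 and -0.79. Which step held the larger drop thus depended on the scaling here too. By stage mean it ranked 1212 of 125685 unigenes at 30 DAF and 2957 at 90 DAF, whereas KASII CL14889.Contig1_All went from rank 1487 to 15953. The other FATB, Unigene1453_All, stood at 0.04, 0.58 and 0 FPKM at 30 DAF and at 0.33, 0.25 and 0.08 FPKM at 60 DAF, and was listed at 0 in all 3 libraries of 90 DAF.

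FATB stood above FATA in every library, and by a wider gap at 90 than at 30 DAF. The level of FATA was below that of FATB Unigene26774_All in 9 of 9 libraries, by a mean log2 difference of -1.06 (SD 0.45, n = 9, exact two-sided sign-flip permutation test, p = 0.00391, the smallest p this design allows, adjusted p = 0.0156 over 4 level comparisons). This test concerns levels within a library, which the choice of members did not use. The pair itself was chosen with earlier results of these data known, so the p-value describes these libraries and is not independent support. The ratio of FATA to FATB was 0.647, 0.549 and 0.632 in the libraries of 30 DAF, 0.586, 0.455 and 0.476 in those of 60 DAF and 0.436, 0.229 and 0.459 in those of 90 DAF. All 3 libraries of 90 DAF lay below all 3 of 30 DAF, and the neighbouring stages overlapped. The stage means of the ratio were 0.609 ± 0.053, 0.506 ± 0.070 and 0.375 ± 0.127 (SD, n = 3). Replicate 2 of 90 DAF was the lowest of all, with both the lowest FATA and the highest FATB of its stage, and without it the mean at 90 DAF was 0.447 and the separation from 30 DAF was still complete. Turned over, FATB went from 1.65 ± 0.149 times FATA at 30 DAF to 2.95 ± 1.23 times at 90 DAF (SD, n = 3). The mean at 90 DAF was raised by replicate 2 at 4.37, and the median was 2.30.

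**Figure D3:**
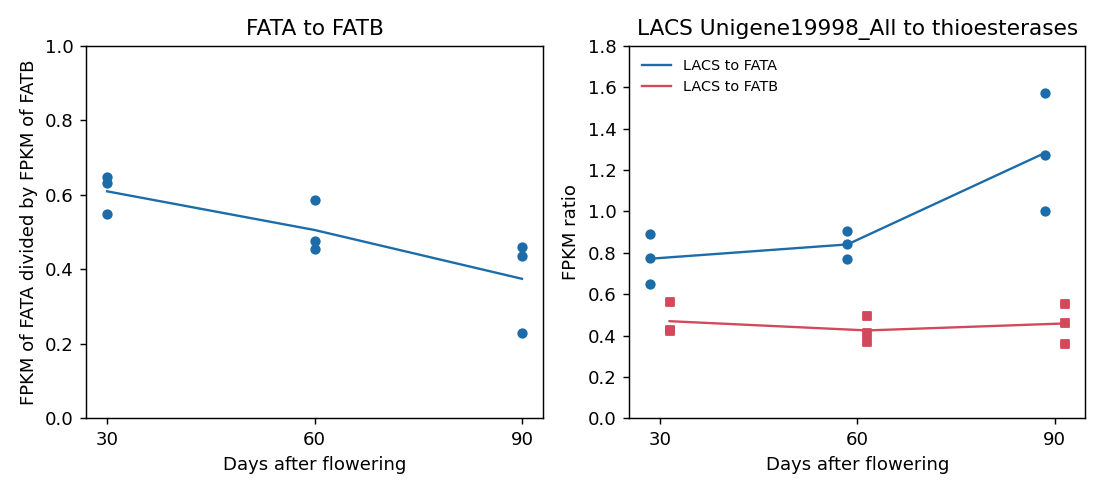
Left, FPKM of FATA CL14443.Contig1_All divided by FPKM of FATB Unigene26774_All, and right, FPKM of LACS Unigene19998_All divided by that of FATA and of FATB, against days after flowering; points are libraries and lines join stage means (n = 3). The FATA to FATB ratio goes from a mean of 0.609 to 0.375 with replicate 2 of 90 DAF lowest at 0.229, the LACS to FATA ratio goes up to a mean of 1.28, and the LACS to FATB ratio stays between 0.360 and 0.561.

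Among the 3 LACS members, Unigene19998_All was the abundant one, with 96.9% of the summed LACS FPKM at 30 DAF and 82.7% at 90 DAF. That sum counts only the 3 members, and with all contigs of the LACS cluster CL8536 counted, its share went from 51.6% through 39.5% to 30.2% over the 3 stages. It stood at 29.19, 35.53 and 41.23 FPKM at 30 DAF, at 20.26, 16.80 and 16.37 FPKM at 60 DAF and at 17.17, 13.85 and 12.86 FPKM at 90 DAF. In the deposited FPKM the libraries of 60 and 90 DAF overlapped, and 30 DAF lay above both. The means were 35.3 ± 6.02, 17.8 ± 2.13 and 14.6 ± 2.26 FPKM (SD, n = 3). The change was -0.96 (Group I), -0.28 (Group II) and -1.24 (Group III) on the log2 scale (SE 0.18), and only that of Group III was called. Without replicate 1 of 30 DAF or without replicate 1 of 60 DAF, the Group I change was called as well. Under median-of-ratios scaling the changes in Groups I and II were -0.55 and -0.87, and under quantile normalization -0.60 and -0.66. The larger drop thus fell in Group I in the deposited FPKM and in Group II under the other scalings.

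Relative to FATB this LACS overlapped between all stages, and relative to FATA it was higher at 90 DAF. Its ratio to FATB Unigene26774_All was 0.469 ± 0.080, 0.425 ± 0.065 and 0.458 ± 0.097 (SD, n = 3) at 30, 60 and 90 DAF, with no stage set apart. Its ratio to FATA was 0.650, 0.774 and 0.889 in the libraries of 30 DAF, 0.844, 0.907 and 0.770 in those of 60 DAF and 1.27, 1.57 and 1.004 in those of 90 DAF. The 90 DAF libraries lay above all others, and the stages before it overlapped. LACS was below FATA in all 6 libraries of 30 and 60 DAF and above it in all 3 of 90 DAF. Over the 9 libraries the difference in level did not pass the exact two-sided sign-flip permutation test (mean log2 difference -0.10, SD 0.39, n = 9, p = 0.453, adjusted p = 0.604). The stage means of this log2 difference, -0.39, -0.25 and 0.34 from the youngest seeds to the oldest, differ in sign. The mean over all libraries thus describes no stage, and the test does not show that the levels were equal.

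LACS CL8536.Contig1_All was the one tested member with higher values at 90 DAF. It stood at 0.97, 1.17 and 0.93 FPKM at 30 DAF, at 1.19, 0.69 and 1.15 FPKM at 60 DAF and at 2.47, 1.86 and 2.93 FPKM at 90 DAF. The 90 DAF libraries lay above all the others and the earlier stages overlapped. The changes of 0.95 in Group II and 0.93 in Group III (log2, SE 0.25) stayed under the limit of 1, and the Group I change of -0.03 turned to 0.29 under quantile normalization. With 0.1 FPKM added in place of 0.5 both changes were called (1.19 and 1.15), and so they were without replicate 2 of 90 DAF (1.098 and 1.07). The Group II change was also called without replicate 1 (1.04) or 3 (1.03) of 60 DAF.

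This contig is one of 5 in the assembly cluster CL8536, contigs grouped by shared sequence, among which reads may have been divided by estimation. The other 4 contigs are not in the study's list. Contig5, Contig2 and Contig3 had stage means of 13.0, 9.03 and 7.67 FPKM at 30 DAF and 9.74, 7.49 and 5.95 FPKM at 60 DAF. At 90 DAF their means were 9.53, 10.01 and 8.05 FPKM. Each was lower at 60 than at 30 DAF without overlap, as were 29.9% of all tested unigenes, and each overlapped between 30 and 90 DAF. The mean of Contig4 went from 2.02 FPKM at 30 DAF to 3.90 FPKM at 90 DAF. Like CL8536.Contig1_All, Contig4 did not overlap between 30 and 90 DAF, with 0.65 to 3.24 FPKM at the first and 3.38 to 4.47 at the last, but its 60 DAF libraries, at 2.12 to 5.02 FPKM, overlapped with both. The whole cluster summed to 32.8 ± 2.96, 27.3 ± 3.12 and 33.9 ± 7.23 FPKM (SD, n = 3), with all stages overlapping and a Group III change of 0.03 on the log2 scale. CL8536.Contig1_All was 3.12% of that sum at 30 DAF, 3.73% at 60 DAF and 7.12% at 90 DAF. The cluster as a whole was at 90 DAF more than the abundant LACS Unigene19998_All, at 14.6 FPKM. The other clusters held little beside the member: CL14443.Contig2_All had at most 0.86 FPKM and CL14889.Contig2_All at most 0.78 FPKM. LACS Unigene13215_All, the last member, stood at 0.13, 0 and 0.16 FPKM at 30 DAF, at 0, 0.07 and 0.05 FPKM at 60 DAF and at 0.83, 0.29 and 0.74 FPKM at 90 DAF. It was detectable mainly at 90 DAF, at levels too low for the fit, and with no filter on low values its Group II change of 1.02 was called.

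**Figure D4:**
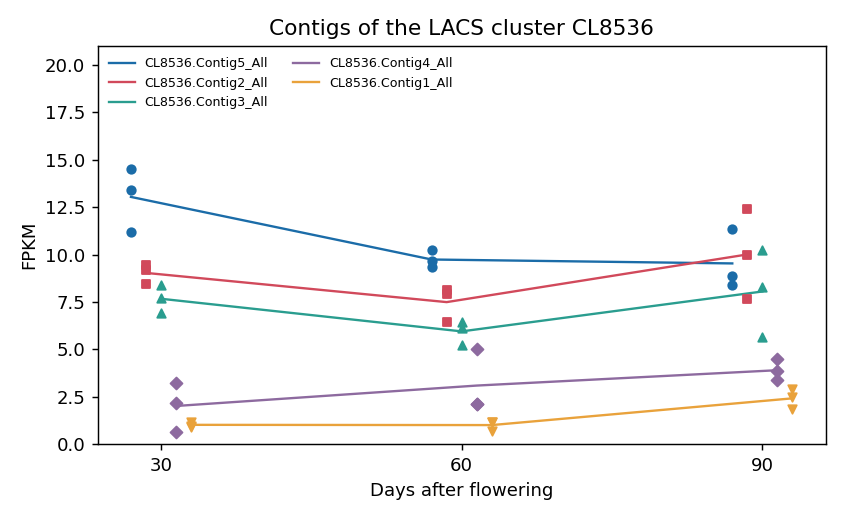
FPKM of the 5 contigs of the LACS cluster CL8536 in each library against days after flowering; points are libraries and lines join stage means (n = 3). CL8536.Contig1_All, the lowest line, goes from 1.02 to 2.42 FPKM between 30 and 90 DAF. The 3 abundant contigs are each lower at 60 than at 30 DAF without overlap, and each overlaps between 30 and 90 DAF.

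Summed over the listed unigenes, KASII stood level with the thioesterases at 30 DAF and far below them at 90 DAF. The sums count only unigenes chosen for a difference between stages, so their own differences partly follow from that choice. Any steady unigene of these enzymes would be left out. The ratio of the KASII sum to the FATA and FATB sum was 1.06 ± 0.038, 0.732 ± 0.065 and 0.275 ± 0.082 (SD, n = 3), with no overlap between any stages. In levels, KASII was the higher in the 3 libraries of 30 DAF and the lower in the other 6, with a mean log2 difference of -0.76 (SD 0.91, n = 9, exact two-sided sign-flip permutation test, p = 0.0313). That difference failed the correction (adjusted p = 0.0625 over 4 level comparisons). Its stage means, 0.08, -0.45 and -1.90 from the youngest seeds to the oldest, also differ in sign. The mean over all libraries describes no stage here either, and the test does not show that the levels were equal.

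Set against its neighbours in the pathway, summed KASII was lower at 90 than at 30 DAF relative to KASIII, and overlapped between those stages relative to SAD. The KASII and SAD sums again count only listed unigenes. KASIII Unigene37345_All, which starts each chain, had stage means of 45.8, 17.3 and 14.1 FPKM, and the ratio of the KASII sum to it was 2.81 ± 0.263, 2.71 ± 0.477 and 0.860 ± 0.186 (SD, n = 3). The first stages overlapped and 90 DAF lay below them. The ratio of summed SAD, the enzyme after KASII, to summed KASII was 3.40 ± 0.279, 5.77 ± 2.10 and 3.94 ± 0.678 (SD, n = 3), so 90 DAF overlapped with both other stages. The most abundant SAD, Unigene13977_All, had means of 218, 115 and 15.0 FPKM. Summed SAD was 9.48 ± 0.445 times FATA at 30 DAF, 12.6 ± 4.38 times at 60 DAF and 4.16 ± 1.36 times at 90 DAF (SD, n = 3). The stages of 30 and 60 DAF overlapped, with replicate 2 of 60 DAF highest at 17.6, and 90 DAF lay below all other libraries.

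In the fit over 55192 unigenes, 4 of the 8 tested members were called in Group I, all lower, beside 8.05% of all tested unigenes (6.33% lower and 1.72% higher). In Group II 2 members were called, both KASII and lower, beside 27.6% of all (9.41% lower and 18.2% higher). In Group III 6 were called, all lower, beside 30.2% of all (16.5% lower and 13.7% higher). These were all members tested except KASII Unigene16003_All and LACS CL8536.Contig1_All. Without overlap between the libraries, 7 tested members were lower and none higher in Group I, beside 29.9% and 5.84% of all. In Group II 4 were lower and 1 higher, beside 14.9% and 32.5%, and in Group III 7 were lower and 1 higher, beside 23.5% and 24.6%. Since the members had been chosen on these contrasts, nothing is read from their excess. Under median-of-ratios scaling or quantile normalization the Group I count was 2. The median change of the tested members was -1.03, -0.48 and -1.59 in Groups I, II and III (log2), beside -0.31, 0.36 and 0.06 for all tested unigenes.

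**Figure D5:**
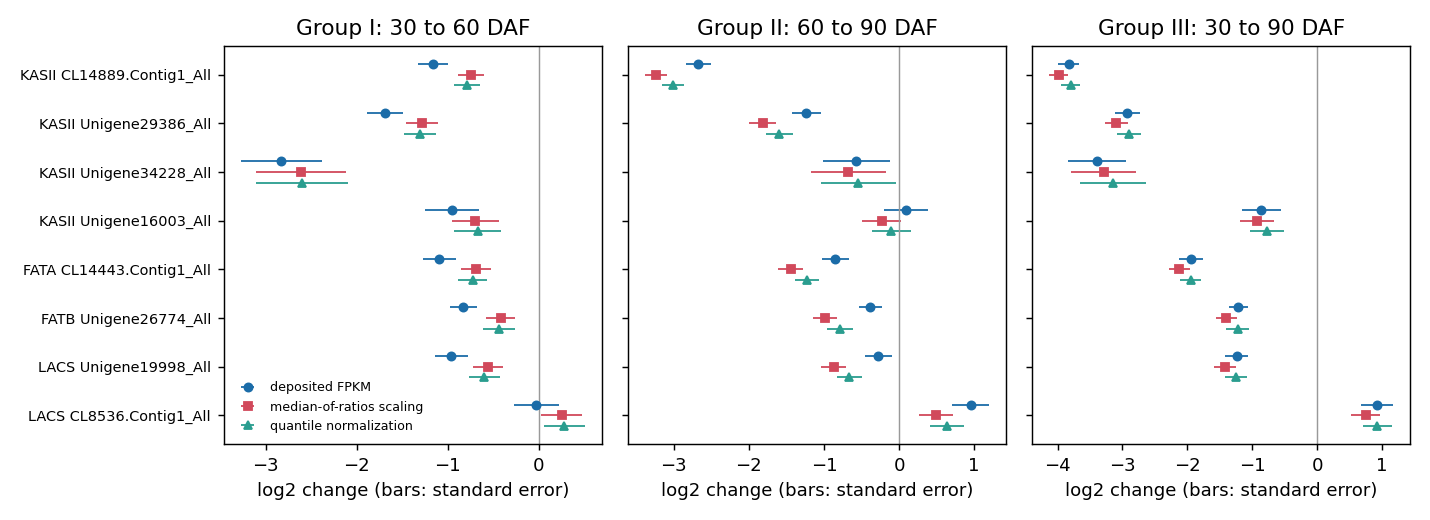
Fitted log2 change of the 8 tested members in Groups I, II and III, from the deposited FPKM, after median-of-ratios scaling and after quantile normalization; bars are standard errors. The other scalings move Group I changes to the right and Group II changes to the left, except Unigene34228_All in Group II under quantile normalization (-0.57 to -0.54), the changes of KASII, FATA, FATB and LACS Unigene19998_All stay below 0 in Group III throughout, and CL8536.Contig1_All in Group I and Unigene16003_All in Group II change side.

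In the rest of the pathway in the study's list, chosen in the same way on these libraries, more unigenes were called lower than higher in Group III. Of 32 other fatty acid synthesis unigenes, all tested, 21 were called lower and 1 higher in Group I, 12 lower and 5 higher in Group II, and 25 lower and 5 higher in Group III. Their median change in Group III was -2.14 (log2), against -1.59 for the members. Of 6 SAD unigenes 4 were tested, none was called in Group I, and all 4 were called lower in Groups II and III. Of 23 elongation unigenes, which act on the acyl-CoA that LACS makes, 22 were tested and 17 were called lower and 3 higher in Group III. The Group III counts stand beside the same 16.5% of all tested unigenes lower and 13.7% higher.

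The 5 abundant members followed each other with Pearson's r of 0.829 to 0.985 on the log2 scale over the 9 libraries, and r here mostly follows the 3 stage means. The closest pair was KASII Unigene29386_All with FATA CL14443.Contig1_All, and the least close was KASII CL14889.Contig1_All with LACS Unigene19998_All. Among 107 other unigenes of the study's list that passed the filter, each KASII had different closest neighbours. CL14889.Contig1_All was most like PDCT CL13909.Contig1_All (r = 0.989), which exchanges the head groups of phosphatidylcholine and diacylglycerol, then the oleate desaturase FAD2 CL2636.Contig3_All (0.986) and SAD Unigene13977_All (0.986). Unigene29386_All was most like BCCP CL14917.Contig2_All (r = 0.994), the biotin carrier of acetyl-CoA carboxylase, then KAR Unigene20183_All (0.993), a reductase of fatty acid synthase, and BCCP CL14917.Contig1_All (0.990).

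FATA was most like unigenes of the first step of the pathway, BCCP CL14917.Contig1_All (r = 0.984) and BC CL6932.Contig3_All (0.982), the biotin carboxylase, followed by KAR Unigene20183_All (0.981). FATB Unigene26774_All was most like α-CT CL5887.Contig1_All (r = 0.967), a carboxyltransferase subunit, which however went from 65.3 to 12.9 FPKM while FATB went from 75.4 to 32.5. BCCP CL14917.Contig2_All (0.958) and the acyltransferase GPAT CL12348.Contig3_All (0.953) followed. For LACS Unigene19998_All the nearest, KCR Unigene17156_All (r = 0.955), FAD2 CL2636.Contig2_All (0.953) and KCS Unigene1248_All (0.948), were all low, at stage means of at most 4.14 FPKM.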

How the data were processed

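The authors filtered the reads with SeqPrep and Sickle, assembled unigenes with Trinity and Tgicl, mapped each library to them (Bowtie2) and deposited the FPKM that RSEM estimated, 1 column per library. No version of these tools is stated in the sources read. RSEM divides reads between similar contigs, so contigs of a cluster are also given as a sum. Lines of the table without a unigene (9) were dropped. Read counts were not analysed here.

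Unigenes with at least 0.5 FPKM in 3 of 9 libraries (55192) were fitted as log2(FPKM + 0.5) with limma 3.58.1 in R 4.3.3, with a term for each stage, a variance trend and Benjamini-Hochberg adjustment over all. The design foresaw this test for FPKM. Levels within a library were compared with exact two-sided sign-flip tests over 9 libraries, adjusted over 4 comparisons, in Python 3.11.15 with numpy 2.4.6 and pandas 2.3.3. The limma fit was checked on simulated libraries, and the sign-flip test on short made-up series with a known p. P-values measure only the spread between these libraries.

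All 10 members are named, with the other contigs of their clusters, the KASIII unigene, the most abundant SAD, and for each of the 5 most abundant members the 3 unigenes of the study's list with the highest Pearson's r. The members, lists, pairs and rules were chosen with earlier results of these data known. Alternatives were another added value, filter, scaling, moderation or threshold, cluster sums, a replicate block and leaving out each library.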

Additional observations from a re-analysis of the deposited data

How the results depend on the processing

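The count of members called in Group I was 4 and became 2 under median-of-ratios scaling and under quantile normalization, where KASII CL14889.Contig1_All and FATA lost the call. Leaving out 1 library at a time gave 4 to 5 members in Group I, 2 to 3 in Group II and 6 to 7 in Group III. No other alternative moved these counts by over 1.5 times. The level of FATA stayed below FATB under all alternatives, at -1.12 to -0.93 (log2) without 1 library, with adjusted p = 0.0313 each time by the exact test. That value comes from the smallest p that 8 libraries allow. The difference between the KASII pair, which was not past the threshold, ranged from -0.13 to 0.10 without 1 library, and it changed sign without replicate 1 (0.06), 2 (0.06) or 3 (0.10) of 90 DAF. LACS against FATA ranged from -0.20 to -0.04 and summed KASII against the thioesterases from -0.87 to -0.57. The FATA to FATB ratio without 1 library was 0.590 to 0.640 for 30 DAF, 0.466 to 0.531 for 60 DAF and 0.332 to 0.447 for 90 DAF. Of 336 recomputed changes of single members, 32 moved by more than the spread between replicates and no called change turned its sign.

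The labels number the replicates 1 to 3 at each stage. Deviations from the stage means correlated at -0.16 to 0.13 between libraries of the same number and at -0.13 to 0.18 between other numbers, so the numbers do not pair the libraries. With a replicate block 4, 2 and 6 members were called in Groups I, II and III, as without it. Steps of FPKM give relative depth only, so the limit of detection of the members listed at 0 is not known.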
